A study of Mus musculus with 18 samples.

Results

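The REV-ERB and ROR nuclear receptors of mouse liver were described through 3 genes, Nr1d1, Nr1d2 and Rora, which were found by their symbols among the 14451 genes of the normalized expression table. Each symbol matched 1 row. RNA sequencing was done on whole livers from wild-type (WT) male mice, aged 8 to 9 weeks, that lived under 12 h of light and 12 h of darkness. Zeitgeber time (ZT) counts the hours from lights on, and 3 livers were sequenced at each of 6 time points 4 h apart, from ZT1 to ZT21, which makes 18 in all. Each liver was a different mouse, so no mouse was followed through the day, and the mice sequenced were those with the best RNA in each group. There was no mutant or treated group, and the comparisons are therefore between times of day.

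REV-ERBα and REV-ERBβ, the products of Nr1d1 and Nr1d2, are nuclear receptors that bind heme, recruit the NCoR-HDAC3 corepressor and repress transcription. RORα, the product of Rora, binds the same DNA elements, called ROREs, and activates transcription from them. In liver the balance of repressor and activator on these elements is known to shape the daily expression of clock genes such as Arntl and of genes of lipid and glucose metabolism, while the E-boxes of the Nr1d1 and Nr1d2 genes are bound by the BMAL1-CLOCK activator.

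On GRCm38, Nr1d1 (ENSMUSG00000020889) lies on the minus strand at chr11:98767932-98775333, with 3077 bp of merged exons. Nr1d2 (ENSMUSG00000021775) lies on the minus strand at chr14:18204054-18239127, with 5409 bp of merged exons. Rora (ENSMUSG00000032238) is on the plus strand at chr9:68653786-69388246, with 13071 bp of merged exons. The last bases of Nr1d1 run into Thra, the thyroid hormone receptor α gene on the opposite strand, and 263 bp (8.55%) of the exons of Nr1d1 are shared. Whether the counting used strand is not given in the sources used here.

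RefSeq promoter windows of GRCm38.p6, from 250 bases before to 50 bases after the start, were found for all 3 genes and were searched on both strands for motifs of the clock. The E-box CACGTG was in none of the 3 windows, against 7.15% of the 32851 promoter windows of all genes. The related E-box form CACGTT was in the window of Nr1d1 (4.68% of all windows), and the receptor half-site AGGTCA was in that of Nr1d2 (16.3% of all windows). The RORE cores TAGGTCA (2.61% of all windows) and TGGGTCA (3.98%) and the D-box forms TTATGTAA (0.938%) and TTACGTAA (0.119%) were in none of the 3, and TAGGTCA contains the half-site. These counts say only which letters stand in these windows. Both upstream sequences are printed 5′ to 3′ on the strand of the gene because they carry the motif that was found, which is in capitals, and the capitals of Nr1d1 are CACGTT read from the other strand. The window of Nr1d1 is chr11:98775378-98775627 and that of Nr1d2 is chr14:18239107-18239356, both on the minus strand, and the motifs start 28 and 77 bases before the RefSeq start.
Nr1d1: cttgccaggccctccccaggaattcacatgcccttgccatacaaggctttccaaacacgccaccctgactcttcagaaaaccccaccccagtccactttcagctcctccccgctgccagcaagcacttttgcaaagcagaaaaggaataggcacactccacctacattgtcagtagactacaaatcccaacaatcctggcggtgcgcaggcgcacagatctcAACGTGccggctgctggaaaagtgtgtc
Nr1d2: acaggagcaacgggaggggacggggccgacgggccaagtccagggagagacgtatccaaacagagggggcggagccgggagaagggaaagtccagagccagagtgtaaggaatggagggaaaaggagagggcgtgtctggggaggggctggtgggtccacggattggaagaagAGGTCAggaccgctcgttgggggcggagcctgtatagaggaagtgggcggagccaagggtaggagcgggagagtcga

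For the genes on which the receptors act, the RORE core TAGGTCA (2.61% of all windows) was in the windows of Arntl and Nfil3 among 5 RORE clock genes with a window (Arntl, Clock, Npas2, Nfil3 and Cry1). It was also in those of G6pc and Plin2, metabolic genes that REV-ERB is known to repress. Of the other genes of that list, Insig2, Avpr1a, Pck1 and Ppargc1a had windows without this core, and Elovl3, Apoc3 and Lpl had no window. The core TGGGTCA (3.98% of all windows) was found for Insig2 and for none of the 5 clock genes. Arntl had 2 windows, and its site lies after the RefSeq start, at base 31. The sites of Arntl and Nfil3 are shown with 10 bases on each side and the core in capitals, from chr7:113207531-113207557 on the plus strand for Arntl and from chr13:52981035-52981061 on the minus strand for Nfil3, where the core reads from the other strand.
Arntl: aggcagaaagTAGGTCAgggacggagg
Nfil3: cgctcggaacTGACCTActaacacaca

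The normalized value of a gene is its estimated read count plus 0.5, per 1000000 reads of a library size set by the authors, and the livers held 10268168 to 23242842 estimated reads on genes, the most in ZT5 replicate 3. Summed values of marker genes for 8 cell types moved over the day as well. Divided by its lowest time point mean, the highest was 1.30 for hepatocytes, 1.72 for Kupffer cells, 1.50 for endothelial cells, 1.18 for stellate cells, 2.06 for cholangiocytes, 1.999 for red blood cells, 1.47 for lymphocytes and 1.53 for neutrophils. Of the cholangiocyte markers Sox9 moved most, with a mean of 9.18 at ZT1 and 3.53 at ZT5. Krt19 and Krt7 were also lower at ZT5, and Epcam was higher (0.946 at ZT1 and 1.11 at ZT5). The red blood cell sums of the ZT5 livers were 172, 257 and 674, so a single liver raised that mean. No marker was at the lowest possible value in any liver, and Cd3e, Nkg7 and Retnlg were not in the table. In whole liver, fewer cells of a type and less RNA per cell cannot be told apart.

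Nr1d1 rose and fell more over the day than the other receptors. Its normalized value was 17.0, 12.5 and 20.4 in the livers of ZT1, 119, 142 and 91.6 at ZT5, and 43.9, 81.4 and 47.2 at ZT9. In the dark phase it was 7.36, 6.09 and 11.7 at ZT13, 1.14, 1.16 and 2.43 at ZT17, and 2.10, 3.23 and 3.08 at ZT21. The ZT5 livers were thus the highest of all and did not overlap with any other time point, with ZT5 replicate 3 (91.6) the nearest to the highest ZT9 liver (81.4). The ordered time points did not overlap with their neighbours, from ZT5 through ZT9, ZT1 and ZT13 to ZT21, and only ZT21 and ZT17 at the bottom did. The mean of ZT5, 117 ± 25.0 (SD, n = 3), was 74.5 times that of ZT17, 1.57 ± 0.739 (SD, n = 3). The ZT17 values rest on 12.9 to 35.3 estimated reads, against 1462 to 2199 at ZT5.

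Nr1d2 had a broader and later maximum. It was 17.9, 16.6 and 20.4 in the livers of ZT1, 97.3, 121 and 112 at ZT5, and 122, 139.5 and 114 at ZT9. It was then 37.7, 51.0 and 56.8 at ZT13, 19.7, 20.2 and 16.6 at ZT17, and 9.51, 11.4 and 13.8 at ZT21. The livers of ZT5 and ZT9 overlapped and stood above all others, ZT13 lay between, ZT17 and ZT1 overlapped, and the ZT21 livers were the lowest. The highest mean, 125 ± 13.1 (SD, n = 3) at ZT9, was 10.8 times the lowest, 11.6 ± 2.13 (SD, n = 3) at ZT21.

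Rora changed little over the day. Its values were 77.2, 80.4 and 87.5 at ZT1, 81.1, 76.7 and 69.6 at ZT5, and 86.6, 87.7 and 66.5 at ZT9. They were 48.7, 58.9 and 59.9 at ZT13, 75.2, 67.9 and 73.6 at ZT17, and 74.4, 104 and 77.8 at ZT21. All 3 ZT13 livers were below the other 15, and the other 5 time points overlapped with their neighbours in the order. The mean ran from 55.9 ± 6.19 (SD, n = 3) at ZT13 to 85.3 ± 16.0 (SD, n = 3) at ZT21, a ratio of 1.53, and the liver of 104 at ZT21 made the spread of that time point the widest.

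**Figure D1:**
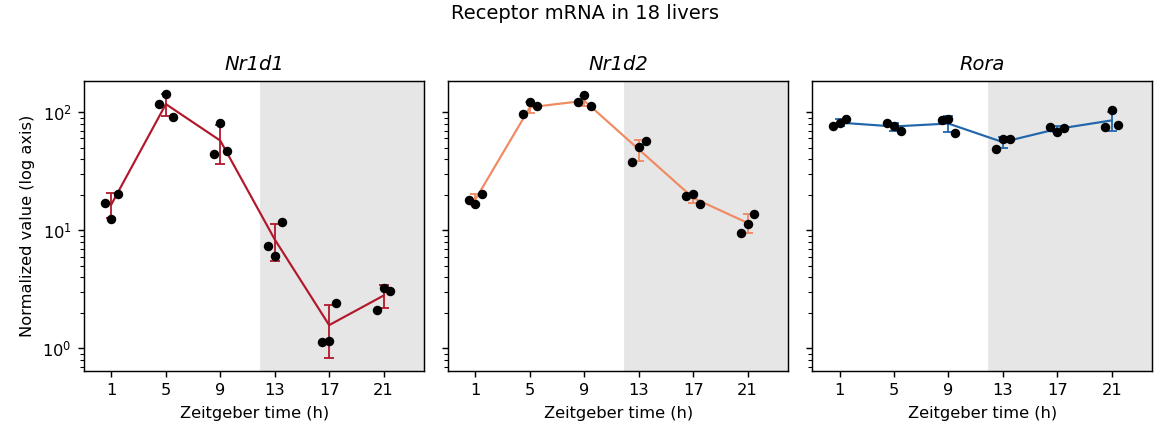
Normalized value (vertical, log axis) of Nr1d1, Nr1d2 and Rora against zeitgeber time in hours, with a point for each of the 18 livers, the line through the time point means, error bars of 1 SD (n = 3) and the dark phase in grey. Nr1d1 falls from a mean of 117 at ZT5 to 1.57 at ZT17, Nr1d2 from 125 at ZT9 to 11.6 at ZT21, and Rora stays between 55.9 and 85.3.

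Per kilobase of merged exons the order of the receptors differed between time points. Nr1d1 had the highest mean at ZT5, Nr1d2 at ZT9 and ZT13, and Rora at ZT17, ZT21 and ZT1. At ZT5 the normalized value per kb was 38.1 ± 8.12 (SD, n = 3) for Nr1d1, 20.4 ± 2.24 for Nr1d2 and 5.80 ± 0.444 for Rora. At ZT13 it was 8.96 ± 1.82 for Nr1d2, 4.27 ± 0.474 for Rora and 2.72 ± 0.952 for Nr1d1, and at ZT1 it was 6.25 ± 0.405 for Rora, 5.41 ± 1.29 for Nr1d1 and 3.38 ± 0.358 for Nr1d2. At ZT17 it was 5.53 ± 0.293 for Rora, 3.48 ± 0.360 for Nr1d2 and 0.511 ± 0.240 for Nr1d1. The merged exons of Rora join all its annotated transcripts, so its value per kb is a low estimate for any shorter transcript.

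A cosine of 24 h was fitted by limma to log2(value + 1) of the 14449 genes above the lowest value in at least 1 liver, and 36.8% of them passed its moderated F test at a Benjamini–Hochberg adjusted P below 0.05. All 3 receptors passed. Nr1d1 had the lowest P of all genes tested (adjusted P = 2.50e-11), with a fitted peak at ZT 6.20 ± 0.17 h (SE). Its amplitude was 2.79 ± 0.12 (SE) on the log2(value + 1) scale, the second largest of all genes on that scale. The amplitude of Nr1d1 was 3.09 with a pseudocount of 0.1 in place of the added 1, and 2.11 with a pseudocount of 5. Its size thus depends on the added 1 by more than the SE. Nr1d2 had an amplitude of 1.78 ± 0.10 (SE) and a peak at 8.29 ± 0.21 h (adjusted P = 5.14e-10). The fitted peak of Nr1d2 was 2.09 h after that of Nr1d1, and the lag stayed between 2.02 and 2.21 h when any 1 liver was left out. This range is not the error of the lag, which was not tested, and the time points were 4 h apart.

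Rora passed narrowly, with an amplitude of 0.21 ± 0.06 (SE) and a peak at 0.92 ± 1.16 h (limma adjusted P = 0.0380). The cosine accounted for 37.1% of its variance, against 96.5% for Nr1d1 and 94.3% for Nr1d2. The call was lost without ZT1 replicate 3 (adjusted P = 0.0687), ZT5 replicate 1 (0.0502), ZT9 replicate 3 (0.0545), ZT17 replicate 2 (0.0537) or any of the ZT13 livers (0.115, 0.0860 and 0.0818), and without the mean-variance trend of limma (0.0594). The rank test JTK, with periods of 20 to 28 h, called 22.4% of the genes (3239) at a q-value below 0.05 with an exact null and 2181 with a normal approximation of it. With the exact null it called Nr1d1 (q = 0.000249) and Nr1d2 (q = 8.07e-05), and it did not call Rora (q = 0.302), and these calls were the same with the approximation.

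Nr1d2 passed the test for a departure from a plain 24 h cosine, and the other receptors did not. In limma a 12 h term, which 1.22% of the genes had at an adjusted P below 0.05, had an amplitude of 0.35 in Nr1d2 (adjusted P = 0.0179), 0.26 in Nr1d1 (adjusted P = 0.482) and 0.16 in Rora (adjusted P = 0.304). The Nr1d2 call was lost without ZT1 replicate 1 (adjusted P = 0.0545) or ZT1 replicate 2 (0.0624). With a pseudocount of 5 the 12 h term of Nr1d1 passed too, with an amplitude of 0.43 (adjusted P = 0.0393). The difference in 12 h term between the genes was not tested.

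The steps between neighbouring time points were compared in limma on log2(value + 1), a scale that understates the change of low values. From ZT1 to ZT5, where 6.31% of all genes changed, Nr1d1 rose by 2.75 ± 0.26 (SE, adjusted P = 2.98e-06) and Nr1d2 by 2.53 ± 0.15 (SE, adjusted P = 3.10e-09). From ZT5 to ZT9 (2.31% of genes) Nr1d1 already fell by 1.05 ± 0.26 (SE, adjusted P = 0.0407), while the change of Nr1d2 was 0.18 ± 0.15 (SE, adjusted P = 0.695). The fall of Nr1d1 at this step was the least firm of its calls. It was lost without ZT1 replicate 1 (adjusted P = 0.0539), ZT5 replicate 1 (0.137), ZT5 replicate 2 (0.158), ZT9 replicate 1 (0.180), ZT9 replicate 3 (0.179) or ZT21 replicate 3 (0.0526), with a pseudocount of 0.1 (0.0828) and without the trend (0.0787).

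All 3 receptors fell across lights off. From ZT9 to ZT13, where 11.1% of genes changed, the log2 change was -2.63 ± 0.26 (SE, limma adjusted P = 6.34e-06) for Nr1d1, -1.36 ± 0.15 (adjusted P = 1.28e-05) for Nr1d2 and -0.51 ± 0.12 (adjusted P = 0.0119) for Rora, where 5.41% of all genes were called lower. The Rora call was lost without ZT9 replicate 1 (adjusted P = 0.0518), ZT9 replicate 2 (0.0647) or ZT13 replicate 1 (0.0699). From ZT13 to ZT17 (2.08% of genes) Nr1d1 fell by a further 1.86 ± 0.26 (SE, adjusted P = 0.00116) and Nr1d2 by 1.30 ± 0.15 (SE, adjusted P = 0.000169).

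The last steps of the night took Nr1d2 down and then Nr1d1 up. From ZT17 to ZT21, where 2.30% of genes changed, Nr1d2 fell by 0.67 ± 0.15 (SE, limma adjusted P = 0.0217), and the change of Nr1d1 was 0.59 ± 0.26 (SE, adjusted P = 0.291). From ZT21 to ZT1 (0.201% of genes) Nr1d1 rose by 2.20 ± 0.26 (SE, adjusted P = 0.000374), and the change of Nr1d2 was 0.63 ± 0.15 (SE, adjusted P = 0.112). The late fall of Nr1d2 was lost without ZT17 replicate 1 (adjusted P = 0.101), ZT17 replicate 2 (0.0666), ZT21 replicate 1 (0.0944) or ZT21 replicate 2 (0.0674), and its rise to ZT1 passed without ZT13 replicate 1 (0.0445). With a pseudocount of 5 the log2 change of Nr1d1 was 1.46 from ZT21 to ZT1 and -1.01 from ZT13 to ZT17, and both were still called. Rora did not pass at either step, nor from ZT13 to ZT17.

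**Figure D2:**
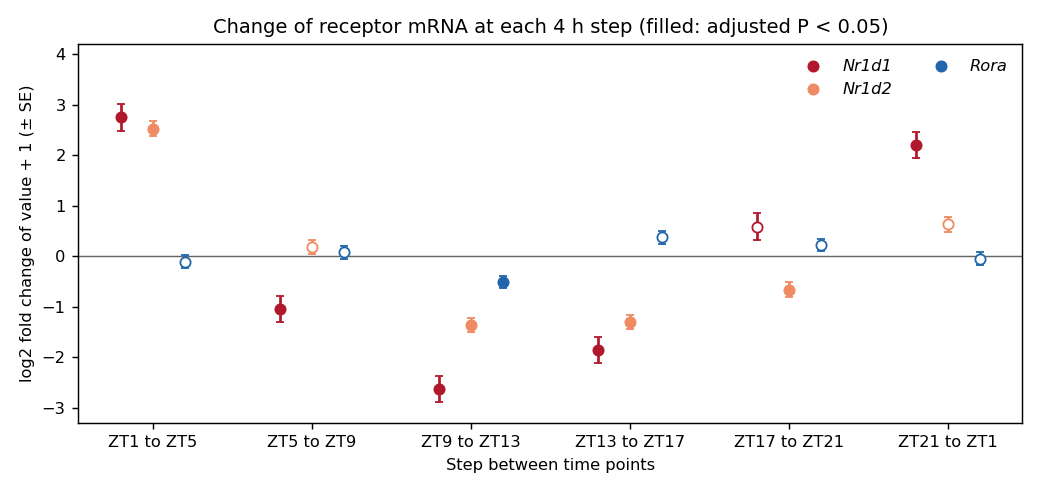
Log2 fold change of value + 1 (vertical) at each of the 6 steps between time points (horizontal) for Nr1d1, Nr1d2 and Rora, with error bars of 1 SE from limma, and with filled points where the adjusted P was below 0.05. Nr1d1 is filled at 5 of the 6 steps, Nr1d2 at 4 and Rora at the step from ZT9 to ZT13.

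Time points 12 h apart were compared as well. Between ZT17 and ZT5, where 21.5% of genes differed, Nr1d1 was lower at ZT17 by a log2 change of -5.54 ± 0.26 (SE, limma adjusted P = 2.42e-10) and Nr1d2 by -2.49 ± 0.15 (adjusted P = 5.03e-09), while the change of Rora was -0.07 ± 0.12 (adjusted P = 0.742). Between ZT21 and ZT9 (12.1% of genes) the changes were -3.90 ± 0.26 for Nr1d1 (adjusted P = 1.21e-08), -3.34 ± 0.15 for Nr1d2 (adjusted P = 2.91e-11) and 0.08 ± 0.12 for Rora (adjusted P = 0.729). These large differences of the REV-ERB genes kept their call in each fit that left out 1 liver.

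Between ZT13 and ZT1, where 16.0% of genes differed, the REV-ERB genes changed in opposite directions. Nr1d1 was lower at ZT13 by -0.93 ± 0.26 (SE, limma adjusted P = 0.0204), Nr1d2 was higher by 1.34 ± 0.15 (adjusted P = 4.84e-06), and Rora was lower by -0.54 ± 0.12 (adjusted P = 0.00536). The Nr1d1 call was lost without ZT1 replicate 1 (adjusted P = 0.0613), ZT1 replicate 3 (0.0946), ZT13 replicate 1 (0.0723) or ZT13 replicate 2 (0.0892), and the other calls held without any 1 liver.

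Ratios within a liver, in which the scaling of the library largely cancels, were used to compare the receptors directly. Each is a log2 ratio of value + 1, which draws the ratios of low values toward 0. That of Nr1d1 to Nr1d2 was -0.15 ± 0.20 (SD, n = 3) at ZT1 and 0.07 ± 0.31 at ZT5, and the livers of these times overlapped. It was -1.16 ± 0.35 at ZT9, -2.42 ± 0.39 at ZT13 and -2.98 ± 0.53 at ZT17, and -1.72 ± 0.16 at ZT21, so it was lowest in the middle of the dark phase. Without the added 1 the means were -2.57 ± 0.43 at ZT13, -3.67 ± 0.78 at ZT17 and -2.05 ± 0.20 at ZT21. These ratios are of normalized values and not per length, so they show the course over the day and not which gene was higher. The ratio of Nr1d1 to Nr1d2 differed between time points by a permutation test of 100000 resamples (F = 37.0, p = 1e-05, the smallest that the test can give, and the same after adjustment over the 2 ratios).

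The log2 ratio of the summed REV-ERB genes to Rora, each with 1 added, was -1.21 ± 0.19 (SD, n = 3) at ZT1, 1.57 ± 0.18 at ZT5 and 1.17 ± 0.21 at ZT9, and then 0.01 ± 0.16 at ZT13, -1.78 ± 0.14 at ZT17 and -2.49 ± 0.31 at ZT21. The lowest of the 6 livers of ZT5 and ZT9 was at 0.93, the ZT13 livers were at -0.11, -0.05 and 0.19, and the highest of the 9 livers of ZT17, ZT21 and ZT1 was at -1.08, so these sets did not overlap. This ratio also differed between time points (F = 188, permutation p = 1e-05, the smallest that the test can give).

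**Figure D3:**
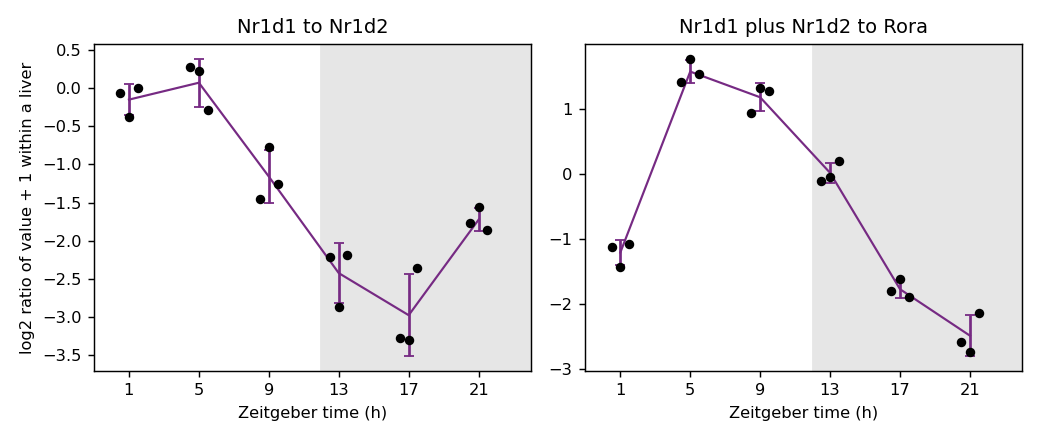
Log2 ratio of value + 1 within each liver (vertical) against zeitgeber time in hours, for Nr1d1 to Nr1d2 on the left and for the sum of Nr1d1 and Nr1d2 to Rora on the right, with a point for each liver, the line through the means, error bars of 1 SD (n = 3) and the dark phase in grey. The left ratio goes from a mean of 0.07 at ZT5 to -2.98 at ZT17, and the right one from 1.57 at ZT5 to -2.49 at ZT21.

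Thra, whose exons overlap those of Nr1d1, had a daily course that was like that of Nr1d1 only in part. Its mean was 13.4 at ZT1, 14.9 at ZT5, 9.13 at ZT9, 7.75 at ZT13, 9.19 at ZT17 and 13.2 at ZT21. Both genes had their highest mean at ZT5, and both fell from ZT5 to ZT9, where the log2 change of Thra was -0.66 ± 0.16 (SE, limma adjusted P = 0.0320). At ZT21, where Nr1d1 was at 2.80 ± 0.615 (SD, n = 3), Thra was near its highest level. The 24 h fit of Thra peaked at 1.46 ± 0.592 h (SE, limma adjusted P = 0.000183), and Thrb did not pass (adjusted P = 0.197). The Pearson correlation of the deviations of Nr1d1 and Thra from their time point means was 0.50 over the 18 livers and 0.62 without the ZT5 livers (n = 15), and the part of the shared exons in it was not tested. The summed Kupffer and endothelial markers were lowest at ZT21 and highest at ZT9 and ZT5, with time point ratios of 1.72 and 1.50. The same ratio was 74.5 for Nr1d1, 10.8 for Nr1d2 and 1.53 for Rora, so that of Rora was of the size of the marker ratios. The part of these cells in the course of any of the receptors was not tested.

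Genes known to be controlled through ROREs had their fitted peaks in the dark phase. All 5 of the RORE clock genes (Arntl, Clock, Npas2, Nfil3 and Cry1) passed the 24 h test of limma, as did 36.8% of all genes. JTK called all 5, and 22.4% of all genes. Their median amplitude was 1.44 against 0.16 over all genes tested, and all 5 were called higher at ZT17 than at ZT5, as were 10.3% of all genes, with a median log2 change of 1.62 against -0.02. The fitted peaks lay between 18.8 h for Cry1 and 22.6 h for Npas2, which is 12.6 to 16.4 h after the peak of Nr1d1. The highest measured mean was after lights on, at ZT1, for Nfil3 (69.3 against 42.8 at ZT21), Clock (77.2 against 62.7) and Arntl (31.6 against 26.3). It was at ZT21 for Cry1 (47.6 against 25.4 at ZT1) and for Npas2 (11.5 against 11.2). The largest amplitudes were 2.04 ± 0.18 (SE) for Npas2, a partner of BMAL1, 1.89 ± 0.16 for Arntl, the gene of BMAL1, 1.44 ± 0.10 for the repressor Cry1 and 1.09 ± 0.16 for Nfil3, a repressor at D-boxes. Npas2 rested on 0 to 1 estimated reads at ZT9 and at ZT13, so its amplitude depends on the added 1. The mean of Arntl was 1.31 ± 0.295 (SD, n = 3) at ZT9, the time of the highest Nr1d2, and 31.6 ± 1.88 at ZT1.

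Metabolic genes that REV-ERB is known to repress did not share 1 peak. Of 9 genes, 8 passed the 24 h test of limma (36.8% of all genes) and JTK called 6 (22.4% of all genes). At ZT17 against ZT5 only Elovl3 was called higher (10.3% of all genes were) and 3 were called lower (11.2% of all genes were). Elovl3, a fatty acid elongase, had an amplitude of 2.14 ± 0.13 (SE) and a fitted peak at 22.3 h, Insig2, which retains SREBP in the endoplasmic reticulum, 1.13 ± 0.08 and 22.5 h, and Avpr1a, a vasopressin receptor, 0.98 ± 0.09 and 22.2 h. Their highest measured means were at ZT1, with 791 for Elovl3 (617 at ZT21), 352 for Insig2 (302) and 43.2 for Avpr1a (36.8). Pck1, an enzyme of gluconeogenesis, had 0.96 ± 0.22 and a fitted peak at 5.34 h, close to that of Nr1d1. Its highest mean was at ZT9 (1590 against 1268 at ZT5). G6pc, Lpl, Ppargc1a and Plin2 also passed, and Apoc3 did not (adjusted P = 0.0668). Among 4 metabolic genes that ROR is known to activate, 2 passed (36.8% of all genes) and JTK called 1 (22.4% of all genes). Cyp8b1, a bile acid enzyme, passed with 0.48 ± 0.08 and a peak at 20.9 h, and Fgf21, a liver hormone, with 0.44 ± 0.12 and 2.65 h. Fgf21 rested on 13 to 38 estimated reads at ZT1 and 0 to 13 at ZT13, and JTK did not call it (q = 0.161). Only 1 of the 4 passed without ZT1 replicate 1, ZT1 replicate 2 or ZT13 replicate 2.

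**Figure D4:**
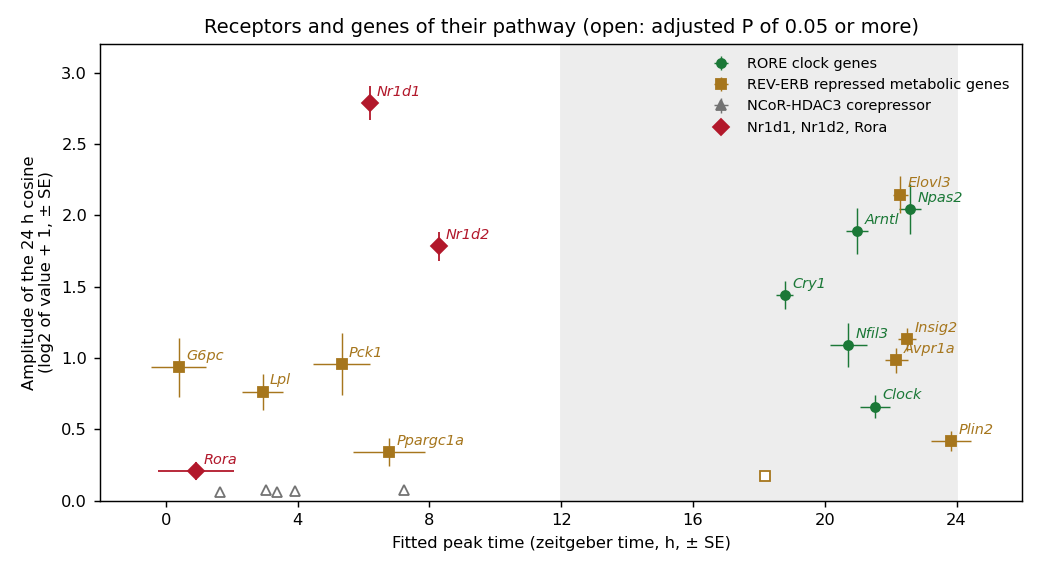
Amplitude of the 24 h cosine on the log2(value + 1) scale (vertical) against the fitted peak in hours of zeitgeber time (horizontal) for the 3 receptor genes, the RORE clock genes, the metabolic genes repressed by REV-ERB and the NCoR-HDAC3 genes, with error bars of 1 SE, open points for genes with an adjusted P of 0.05 or more and the dark phase in grey. Nr1d1 and Nr1d2 peak at 6.20 and 8.29 h, and the 5 RORE clock genes between 18.8 and 22.6 h.

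The NCoR-HDAC3 corepressor, through which REV-ERB represses, had 5 genes tested (Ncor1, Hdac3, Tbl1x, Tbl1xr1 and Gps2). Of these, 0 passed the 24 h test of limma, against 36.8% of all genes, and JTK called 0, against 22.4%. An unadjusted limma P below 0.05 was found in 0 of them, against 6762 of the 14449 genes tested. Their median amplitude was 0.07, against 0.16 over all genes tested. Of 6 coactivators of ROR, 4 passed in limma, where 36.8% of all genes did, and JTK called 2, where it called 22.4% of all genes. Their median amplitude was 0.16. Those that passed were Ppargc1a with 0.34 ± 0.10 (SE) and 6.78 h, Ncoa2 with 0.25 ± 0.04 and 4.45 h, Crebbp with 0.18 ± 0.05 and 4.64 h and Ep300 with 0.14 ± 0.04 and 8.88 h. The count of coactivators was 2 without ZT5 replicate 2 or ZT9 replicate 2. It ran from 4 to 6 over a pseudocount of 0.1 and other scalings. Of 6 genes that act on the stability of the REV-ERB protein only Huwe1, a ubiquitin ligase, passed in limma (36.8% of all genes), with 0.13 ± 0.03 and 4.89 h. JTK called 0 of the 6 (22.4% of all genes), and 2 passed in limma without ZT5 replicate 3.

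Heme is the ligand of the REV-ERB receptors, and 6 of 11 genes of its synthesis and breakdown passed the 24 h test of limma, as did 36.8% of all genes. JTK called 5 of the 11, and 22.4% of all genes. Alas1, the first enzyme of heme synthesis, had the largest amplitude of them, 1.15 ± 0.29 (SE), with a peak at 13.2 h, and JTK did not call it (q = 0.103). Its livers spanned 832 to 956 at ZT13 and 54.6 to 625 at ZT21, the widest spread of its time points. Uros had 0.29 ± 0.06 and 21.0 h, Blvrb, a biliverdin reductase, 0.27 ± 0.05 and 17.0 h, and Cpox 0.25 ± 0.04 and 16.9 h, while Fech and Ppox also passed.

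Among the regulators of the E-boxes and D-boxes that drive the REV-ERB genes, all 6 activators and all 9 repressors passed the 24 h test of limma, as did 36.8% of all genes. JTK called 6 of the activators and 8 of the repressors, and 22.4% of all genes. The activators with the largest amplitudes were Dbp (3.30 ± 0.29, SE, peak at 8.59 h), Npas2, Arntl and Tef (1.34 ± 0.15, 10.7 h), and the repressors were Per3 (1.84 ± 0.20, 10.8 h), Ciart (1.84 ± 0.16, 10.6 h), Per2 (1.48 ± 0.09, 13.9 h) and Cry1. At ZT1 Dbp rested on 1.05 to 4.38 estimated reads and Ciart on 0 to 4. These lists share genes with the RORE clock genes.

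The genes most like each receptor were those with the highest Pearson correlation of log2(value + 1) over the 18 livers, which share the time of day and the library. For Nr1d1 they were C77080 (r = 0.964), Abcg8 (0.957), Lclat1 (0.943), Slc7a2 (0.941) and Bdh1 (0.938), and the most opposite were Cry1 (r = -0.966), Bpnt1 (-0.957) and Gm20634 (-0.944). For Nr1d2 they were Dbp (r = 0.969), Slc38a3 (0.956), Rnf19b (0.947), Tns2 (0.937) and Abcg5 (0.935), with Pid1 (-0.957) among the most opposite. Abcg8 and Abcg5, which encode the subunits of the sterol transporter of the bile canaliculus, were thus each on the list of a REV-ERB gene, with fitted peaks at 6.63 and 7.97 h.

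For Rora the most similar genes were Tmem140 (r = 0.950), Casp9 (0.881), Trp53inp1 (0.866), Dsp (0.848) and Ppm1k (0.843), and the most opposite were Ndufaf6 (r = -0.904), Srebf1 (-0.848) and Ccdc86 (-0.845). Srebf1, the gene of the lipogenic factor SREBP1, had its fitted peak at 11.9 h, near the time of the lowest Rora. Its choice by a negative correlation in the same livers makes such a time likely. The number of genes with r above 0.9 was 32 for Nr1d1, 19 for Nr1d2 and 1 for Rora.

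Livers of the same time point were compared as well. The Pearson correlation of the deviations from the time point means over the 18 livers was 0.40 between Nr1d1 and Nr1d2, 0.43 between Nr1d1 and Rora and 0.38 between Nr1d2 and Rora, and without the ZT5 livers (n = 15) these were 0.41, 0.41 and 0.47. These values are a description, since the genes of a liver share its library and its scaling.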

How the data were processed

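RNA was measured in 18 livers, 3 at each of 6 times. Per the labels and the paper's methods, the authors trimmed adapters with cutadapt, mapped the reads to the GRCm38 transcriptome (Ensembl 84), quantified them with RSEM 1.2.20 and normalized them with limma. The table was deposited as a linear signal, in which a value is the estimated count plus 0.5 per 1000000 reads of an effective library size. Reads behind a value were worked out from the lowest value of each liver, and only 39.1% to 47.9% of the values per liver were whole reads (within 0.005 reads), so count tests were not used. Multimapped reads are divided by RSEM, so the counts are estimates. The depth of 10268168 to 23242842 reads limits values near the lowest, at which 811 genes stood in at least 1 liver.

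Of 14451 genes, 14449 were tested with limma 3.58.1 in R 4.3.3 on log2(value + 1), with eBayes and a mean-variance trend, as a 24 h cosine and sine, as an added 12 h pair, and as 9 contrasts of time point means, with Benjamini–Hochberg adjustment over all genes. JTK (rank correlation with cosine orders of 20, 24 and 28 h, exact null, Bonferroni over orders) and the permutation tests were run in Python 3.11.15 with numpy 2.4.6 and scipy 1.17.1. The tests were tested on simulated data first. The labels give each liver its own mouse. Exons are those of GENCODE M21. The members and the gene lists were chosen with earlier results of these data known, so the lists are no independent support. Named genes are the members, the 5 most and 3 least correlated genes of each with a mean value of at least 1, genes with overlapping exons, and list genes past the 24 h test, of which the 4 of largest amplitude have values. Some genes that this rule or a list would name are not reported here, and lists were counted without them. The alternatives were other pseudocounts, scalings, a filter on low values, no trend, other JTK orders and nulls, and leaving out each liver. The normal approximation of the JTK null on all livers and the ratios with no pseudocount were added after the data were seen.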

Additional observations from a re-analysis of the deposited data

How the results depend on the processing

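No paired analysis was possible because the labels give no replicate numbers that time points share. No called result changed direction. The uncalled log2 changes of Rora did, and ran from -0.07 to 0.17 for ZT9 to ZT21 and from -0.14 to 0.10 for ZT21 to ZT1 with 1 liver left out. Under other pseudocounts, scalings, filters and JTK orders, the 24 h calls of Nr1d1 and Nr1d2 held. The 24 h amplitude of Nr1d1 ran from 2.11 to 3.09 over the other pseudocounts and scalings, and that of Nr1d2 from 1.60 to 1.83. The fall of Nr1d1 from ZT5 to ZT9 was no longer called with a pseudocount of 0.1 (log2 change -1.06) or without the trend (-1.05), its 12 h term was called with a pseudocount of 5 (amplitude 0.43), and Rora was not called without the trend (amplitude 0.21). With a pseudocount of 5 the called changes of Nr1d1 were smaller by over 1.5 times for ZT13 to ZT17 (-1.01) and ZT21 to ZT1 (1.46). Without the trend fewer genes were called from ZT5 to ZT9 (222 against 334), ZT13 to ZT17 (174 against 300), ZT17 to ZT21 (218 against 333) and ZT21 to ZT1 (19 against 29), and the cause was not tested. With 1 liver left out, the log2 change of Nr1d1 ran from -1.32 to -0.89 for ZT5 to ZT9 and from -1.17 to -0.75 for ZT1 to ZT13, that of Nr1d2 from -0.79 to -0.55 for ZT17 to ZT21 and from 0.51 to 0.75 for ZT21 to ZT1, and that of Rora from -0.64 to -0.42 for ZT9 to ZT13. The 12 h amplitude of Nr1d2 ran from 0.32 to 0.40 and the 24 h amplitude of Rora from 0.15 to 0.23. Genes called ran from 99 to 193 for the 12 h term, 463 to 991 for ZT1 to ZT5, 138 to 357 for ZT5 to ZT9, 905 to 1677 for ZT9 to ZT13, 113 to 345 for ZT13 to ZT17, 71 to 377 for ZT17 to ZT21 and 10 to 35 for ZT21 to ZT1, where fits have fewer livers. JTK called 1233 to 2020 genes in these fits, which used a normal approximation of the null. With all livers and that approximation it called 2181, against 3239 with the exact null. With 1 liver left out, list genes called ran from 1 to 2 for genes activated by ROR, 2 to 4 for coactivators and 1 to 2 for protein stability. Over a pseudocount of 0.1 and other scalings, with all livers, the count of coactivators ran from 4 to 6. The depth limits Nr1d1 at ZT17, where it rests on 12.9 to 35.3 reads, and among the list genes Npas2 at ZT9 and ZT13, with 0 to 1. Time points 4 h apart limit the fitted peaks.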
